A study of Rattus norvegicus with 6 samples.

Results

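Resident cardiac macrophages were followed through 10 marker genes (Cd163, Mrc1, Lyve1, Folr2, Timd4, Cd68, Adgre1, Maf, Mertk and Gas6), chosen by name among the 32623 genes of the deposited table. A row was found for 9 of them, and the expression of Timd4 was not analysed here. All 9 were expressed above the minimum used for testing, among 13964 tested genes. RNA was taken from the myocardium of wild-type male rats, 3 after sham surgery and 3 after a ligation of the left anterior descending coronary artery that lasted 30 min, so a whole-tissue sample of many cell types stands behind each value. The labels describe anesthesia, ventilation and an opened chest without saying which of these steps the sham rats had, and the strain, the age and the part of the heart that was taken were not given in the sources used here.

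Macrophages of the healthy heart are long-lived tissue cells that clear debris, dead cells and free hemoglobin, and many of them descend from embryonic precursors. They carry scavenger receptors and express receptors by which they bind and engulf dying cells, a process called efferocytosis. After injury, neutrophils and monocytes from the blood join them, and pan-macrophage genes alone do not tell the resident cells from the recruited ones.

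Total counts ranged from 68529126 to 79591989 reads per sample, and between 17076 and 18096 genes had at least 1 read. FPKM (fragment counts divided by transcript length and by library size, a level per length) is used for levels, and log2 fold changes of ischemia over sham come from edgeR on the raw counts. Sham replicate 1 is labelled as male like the rest, but only 26 of its reads fell on 3 Y-linked genes, where the other samples had 1772 to 4318. FPKM of the atrial gene Myl7 was 6530, 117 and 3541 in sham and 764, 10 and 12.3 in ischemia, uneven within both groups. The replicates were numbered in the labels, but separate animals are not stated for each sample, and p-values measure the spread between these samples only.

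Of the 9 measured markers, Cd163 and Cd68 rose in ischemia with an adjusted p under 0.05 in edgeR, beside 5.18% of all tested genes called higher. None of the 9 was called lower by edgeR, beside 1.53% of all tested genes, with 2 lower at an unadjusted p under 0.05 (Adgre1 and Gas6, beside 14.2%) and 1 called lower by DESeq2 (Gas6, beside 12.5%). At an unadjusted p under 0.05, edgeR listed 5 of the 9 markers as higher, beside 18.2% of all tested genes, and DESeq2 called 5 higher, beside 14.8%. FPKM of 5 markers (Cd163, Mrc1, Cd68, Maf and Mertk) was higher in each ischemia sample than in any sham sample, a pattern held by 23.6% of all tested genes. Gas6 was lower in each ischemia sample than in any sham sample, which held for 15.0% of all tested genes. Lyve1, Folr2 and Adgre1 overlapped between the groups. By a selection after that of the study (a log2 fold change over 2 with p under 0.01, taken here as unadjusted), Cd68 was the 1 marker past it, beside 3.31% of all tested genes, and no marker was past it in the lower direction, beside 1.34%. The median log2 fold change was 1.09 over the 9 markers and -0.0015 over all tested genes.

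**Figure D1:**
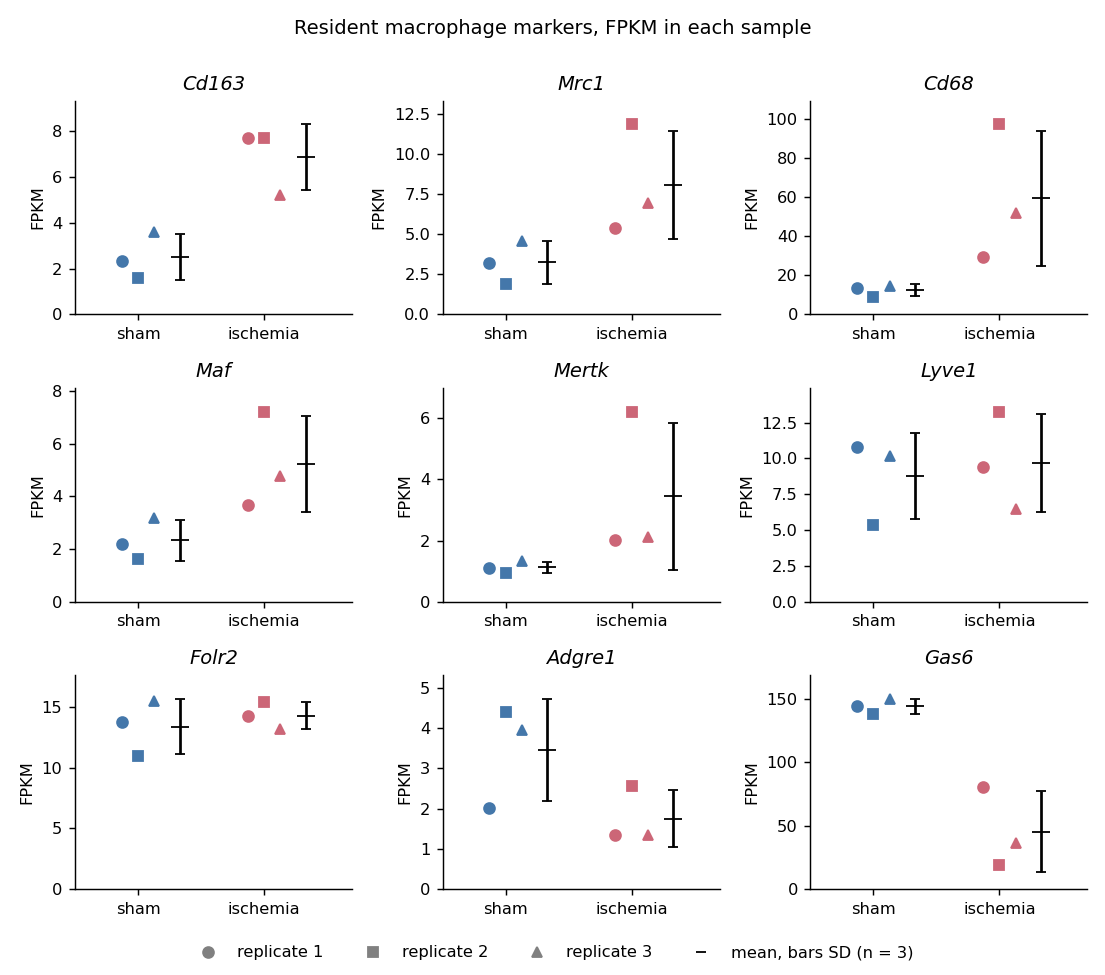
FPKM of the 9 measured markers in each sample, with one panel per gene and its own linear axis from 0. Points are samples, with the shape giving the replicate number, and black bars give the mean and SD of 3 samples. Ischemia replicate 2 was the highest ischemia sample for 7 of the 9 genes and the lowest for Gas6.

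Cd163 encodes the receptor that takes up complexes of hemoglobin and haptoglobin. In the deposited table it is ENSRNOG00000010253 on chromosome 4 from 156752082 to 156785467, plus strand. In the order of the replicate numbers, which is kept for all values that follow, sham had 2.32, 1.60 and 3.59 FPKM and ischemia had 7.71, 7.70 and 5.22 FPKM. All ischemia samples lay above all sham samples, with ischemia replicates 1 and 2 at nearly the same level. The reads behind these values numbered 753, 552 and 1111 in sham and 2708, 2463 and 1578 in ischemia. EdgeR gave a log2 fold change of 1.40 ± 0.28 (SE, n = 3 per group), a 2.63-fold higher level (95% interval 1.63 to 4.23), with an adjusted p of 0.0445. Its size stayed between 1.19 and 1.67 in 16 alternatives, but the call was made in 6 of them, with edgeR and the other tools giving adjusted p from 0.00024 to 0.170.

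Mrc1 encodes the mannose receptor, which binds and internalises glycoproteins (ENSRNOG00000018251, chromosome 17 from 81352700 to 81433743, plus strand). Its FPKM was 3.21, 1.92 and 4.58 in sham and 5.40, 11.9 and 6.96 in ischemia. Ischemia lay above sham without overlap, and the gap between sham replicate 3 and ischemia replicate 1 was small beside the spread within ischemia. In edgeR the log2 fold change came to 1.25 ± 0.35 (SE, n = 3 per group), 2.38-fold with a 95% interval of 1.32 to 4.26, and the adjusted p of 0.0758 in edgeR missed the threshold.

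Lyve1, Folr2 and Timd4 are the genes most often used to tell long-resident macrophages from recruited ones. Lyve1, a hyaluronan receptor that lymphatic endothelium also carries (ENSRNOG00000026902, chromosome 1 from 175663266 to 175676699, minus strand), had FPKM of 10.8, 5.34 and 10.2 in sham and 9.39, 13.3 and 6.45 in ischemia. Both the lowest and the second-highest of these levels were sham samples. Its log2 fold change was 0.07 ± 0.29 (SE, n = 3 per group), with a 95% interval of the fold from 0.642 to 1.72 and an adjusted p of 0.882 in edgeR. The sign was negative without sham replicate 2 (-0.12) and without ischemia replicate 2 (-0.15).

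Folr2 encodes a folate receptor of macrophages (ENSRNOG00000019890, chromosome 1 from 166915045 to 166919302, minus strand). It gave 13.8, 11.0 and 15.5 FPKM in sham and 14.3, 15.5 and 13.2 FPKM in ischemia. The ischemia samples lay within the range of the sham samples. The log2 fold change was 0.01 ± 0.17 (SE, n = 3 per group), with a sign that turned negative under relative log expression and upper quartile scaling (-0.01 and -0.02), and the adjusted p was 0.965 in edgeR. The 95% interval of the fold ran from 0.755 to 1.35, and smaller changes in either direction could not be seen at this spread. The coefficient of variation of Folr2 was 17% in sham and 7.87% in ischemia, whereas that of Lyve1 was 34.1% and 35.3%.

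Cd68, a lysosomal glycoprotein of phagocytes that monocytes carry as well (ENSRNOG00000037563, chromosome 10 from 56268720 to 56270640, minus strand), had the largest log2 fold change of the 9 markers. FPKM was 13.7, 8.71 and 14.7 in sham and 29.2, 97.0 and 51.6 in ischemia. Every ischemia sample was above every sham sample, and ischemia replicate 2 was 3.33 times as high as ischemia replicate 1. Its log2 fold change reached 2.17 ± 0.42 (SE, n = 3 per group), a 4.51-fold higher level with a 95% interval of 2.25 to 9.01 and an adjusted p of 0.0408 in edgeR. Without ischemia replicate 2 it was 1.71, with an adjusted p of 0.0476 in edgeR, whereas Cd163 had 1.36 and 0.0748 there and was not called. Cd68 was called in 11 of 17 alternatives, with adjusted p from 2.65e-05 to 0.160 in edgeR and the other tools.

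The calls of Cd163 and Cd68 both ended under total count scaling, with adjusted p of 0.0637 and 0.0507 in edgeR. When any one of sham replicates 1, 2 or 3 or ischemia replicate 3 was left out, edgeR called 0 of all tested genes in either direction, the markers included, while 3029 to 3822 genes had an unadjusted p under 0.05. Without sham replicate 1, the sample with few Y-linked reads, the log2 fold changes of Cd163 and Cd68 were 1.31 and 2.21, with adjusted p of 0.170 and 0.160 in edgeR. For the other 7 markers they were 1.21 (Mrc1), 0.20 (Lyve1), -0.01 (Folr2), -1.43 (Adgre1), 1.01 (Maf), 1.46 (Mertk) and -1.79 (Gas6).

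Adgre1 encodes the F4/80 antigen, an adhesion receptor that marks mature tissue macrophages in rodents (ENSRNOG00000046254, chromosome 9 from 9431860 to 9585865, minus strand). Its FPKM was 2.01, 4.40 and 3.95 in sham and 1.35, 2.57 and 1.33 in ischemia. Sham replicate 1 lay below ischemia replicate 2, so the groups overlapped. The log2 fold change was -1.13 ± 0.43 (SE, n = 3 per group), with a 95% interval from -2.18 to -0.08, opposite in sign to Cd68, and the adjusted p was 0.135 in edgeR. Adgre1 was called in none of 16 alternatives, in which the log2 fold change ran from -1.43 to -0.68.

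**Figure D2:**
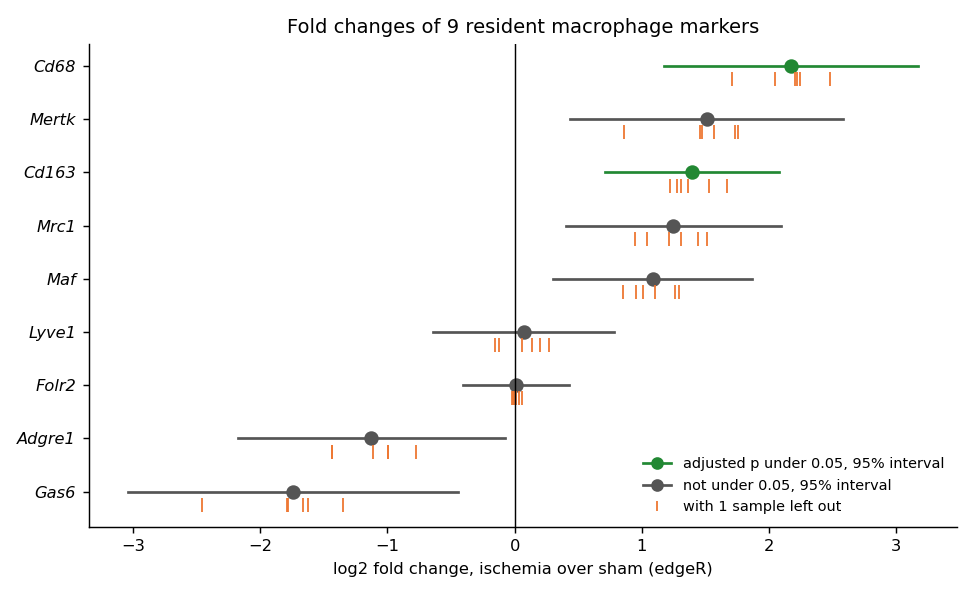
Log2 fold changes of the 9 markers, ischemia over sham, on a linear axis, with dots and bars giving the edgeR estimate and its 95% interval and orange ticks giving the estimate with 1 of the 6 samples left out. Only Cd163 and Cd68 have an adjusted p under 0.05 (green), Lyve1 and Folr2 lie at 0.07 and 0.01, and Adgre1 and Gas6 lie at -1.13 and -1.74.

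Maf, a transcription factor of the macrophage differentiation program (ENSRNOG00000012428, chromosome 19 from 48194804 to 48196748, minus strand), had FPKM of 2.18, 1.63 and 3.18 in sham and 3.66, 7.22 and 4.79 in ischemia. No ischemia sample reached down into the sham range, with sham replicate 3 close under ischemia replicate 1. The log2 fold change was 1.09 ± 0.32 (SE, n = 3 per group) and the adjusted p was 0.0851 in edgeR. Over the 6 samples the mean-centred log2 CPM (counts scaled to library size) of Maf and Mrc1 differed by a root mean square of 0.144, which placed Maf at rank 6 of 12225 genes for likeness to Mrc1 and Mrc1 at rank 22 for likeness to Maf.

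Mertk encodes a receptor tyrosine kinase by which macrophages bind and engulf dying cells (ENSRNOG00000017319, chromosome 3 from 121235119 to 121342444, plus strand). It was the least abundant of the 9 markers in sham, with FPKM of 1.11, 0.925 and 1.32, against 2.01, 6.22 and 2.12 in ischemia. All ischemia samples were above sham, and ischemia replicate 2 stood above the other two. Ischemia over sham gave a log2 fold change of 1.51 ± 0.45 (SE, n = 3 per group), and the adjusted p was 0.0835 in edgeR. This was 0.86 without ischemia replicate 2.

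Gas6 encodes the secreted bridge between phosphatidylserine on dying cells and the receptors Mertk and Axl, and endothelial cells, fibroblasts and muscle cells make it too. It is ENSRNOG00000018233 on chromosome 16 from 81213364 to 81243757, minus strand. It was the most abundant of the 9 markers in sham, at 145, 138 and 150 FPKM, and stood at 80.6, 18.9 and 36.3 FPKM in ischemia. In FPKM the sham samples lay close together, all ischemia samples lay below them, and ischemia replicate 2 was the lowest. The log2 fold change was -1.74 ± 0.54 (SE, n = 3 per group), 3.34-fold lower, with a 95% interval on the log2 scale from -3.04 to -0.45 and an adjusted p of 0.0900 in edgeR. Without ischemia replicate 1 the log2 fold change was -2.46. Gas6 was called lower by DESeq2 and by edgeR without ischemia replicate 1, and Cd163, Mrc1, Cd68, Maf and Mertk were called higher in both. Without that sample edgeR called 10.7% of all tested genes higher and 7.96% lower.

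By exact two-sided permutation of the FPKM values of single markers, the 6 markers whose groups did not overlap had p = 0.1, the smallest that 3 samples against 3 can give, and p was 0.8 for Lyve1, 0.7 for Folr2 and 0.2 for Adgre1. In sham the order of mean FPKM was Gas6 (144), Folr2 (13.4), Cd68 (12.4), Lyve1 (8.78), Adgre1 (3.46), Mrc1 (3.24), Cd163 (2.50), Maf (2.33) and Mertk (1.12). Neighbours in this order had overlapping ranges, except Gas6 and Folr2, Lyve1 and Adgre1, and Maf and Mertk. In ischemia the highest mean was that of Cd68 (59.3), followed by Gas6 (45.3) and Folr2 (14.3), and the lowest was Adgre1 (1.75). In FPKM, sham replicate 2 was the lowest sham sample for 8 of the 9 markers, the exception being Adgre1, and sham replicate 3 was the highest for 7. FPKM does not carry the scaling factors (TMM) of the edgeR fit, which were 1.04, 0.834 and 1.05 in sham. The order and closeness of the sham samples can therefore depend on the scaling.

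Within each sample, FPKM was also set against that of Cd68, which takes the scaling of libraries out of the comparison. In a tissue, fewer cells of a type and less RNA per cell cannot be told apart, and this holds for the ratios too. The ratio of Folr2 to Cd68 was 1.01, 1.26 and 1.05 in sham and 0.489, 0.159 and 0.256 in ischemia. That of Lyve1 to Cd68 was 0.790, 0.613 and 0.694 in sham and 0.322, 0.137 and 0.125 in ischemia. Neither ratio overlapped between the groups, but because Cd68 itself was higher in all ischemia samples, the same held in the lower direction for 84.1% of all tested genes, so it says nothing particular about Folr2 or Lyve1. Adgre1 over Cd68 ranged from 0.147 to 0.506 in sham and from 0.0258 to 0.0463 in ischemia. Cd163 over Cd68 overlapped (0.170 to 0.244 in sham, 0.0794 to 0.264 in ischemia), whereas Mrc1 (0.220 to 0.312 against 0.122 to 0.185), Maf (0.160 to 0.216 against 0.0744 to 0.125) and Mertk (0.0814 to 0.106 against 0.0411 to 0.0688) were lower relative to Cd68 in all ischemia samples. These ratios share their denominator and were not tested.

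**Figure D3:**
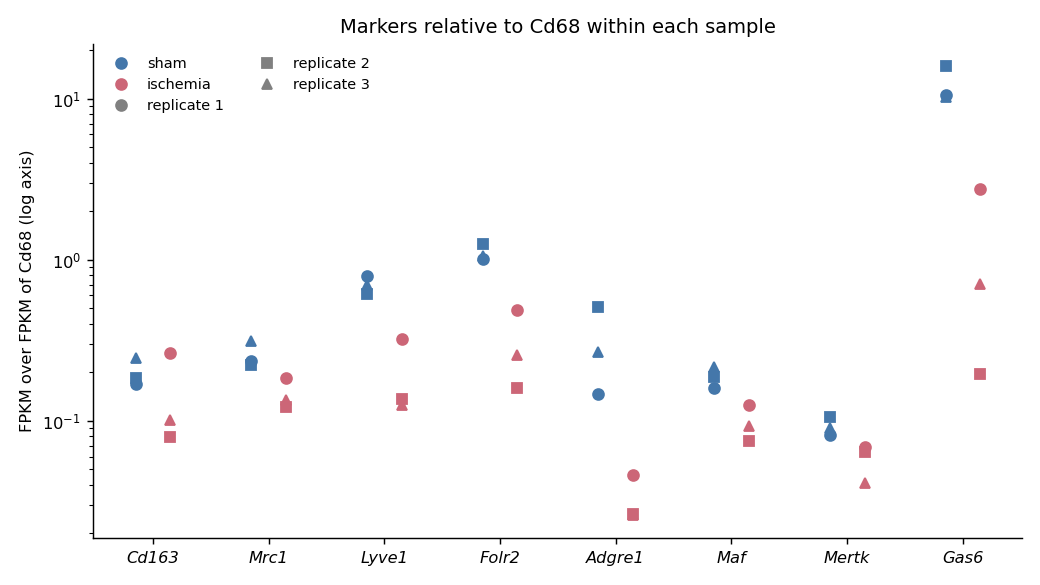
FPKM of 8 markers divided by FPKM of Cd68 in the same sample, on a log axis, with blue points for sham, red points for ischemia and shapes for replicate numbers. The red points lie below the blue ones for each gene except Cd163, where ischemia replicate 1 (0.264) is the highest of the 6 samples.

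Among the markers themselves, Cd163 over Folr2 was 0.168, 0.146 and 0.232 in sham and 0.540, 0.499 and 0.395 in ischemia, without overlap. Lyve1 over Folr2 ranged from 0.487 to 0.783 in sham and from 0.489 to 0.860 in ischemia, and the groups overlapped, with ischemia replicate 2 above every sham sample. For ligand and receptor, Gas6 over Mertk was 130, 149 and 114 in sham and 40.2, 3.04 and 17.1 in ischemia. Folr2 over the complement gene C1qb lay between 0.216 and 0.252 in sham and between 0.236 and 0.256 in ischemia. Folr2 over C1qa, another complement gene, lay between 0.163 and 0.169 in sham and between 0.252 and 0.274 in ischemia, without overlap. Cd163 and Mertk were themselves higher, and C1qa and Gas6 lower, in each ischemia sample, so these separations add little to the levels. The share of all tested genes separated in such ratios was not computed, and the ratios were not tested.

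The 3 genes closest to each of 4 markers were found by the root mean square difference of mean-centred log2 CPM over the 6 samples, among 12225 genes with symbols, as a description of shape only. For Cd163 they were Tnfrsf21 (0.148), SNORA66 (0.163) and Pdia5 (0.185). For Lyve1 they were Tgoln2 (0.106), Cspp1 (0.114) and Ppp2r3c (0.117), and for Mertk they were Tacc3 (0.0608), Uap1 (0.117) and Cmtm6 (0.131). Folr2 was closest to Atp6v0b (0.0501), Bcl7b (0.0513) and Copz1 (0.0518), whose levels likewise differed little between samples.

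Promoter sequence is shown for both markers that edgeR called higher and for Mrc1, another scavenger receptor. Folr2 is shown as well, since its log2 fold change was nearest to 0. The sequences are 250 bases before to 50 bases after the gene start from RefSeq on GRCr8, which lists several genes elsewhere than the deposited table, and all 10 markers had one. Capitals mark the PU.1 core GAGGAA or its reverse complement TTCCTC, and the MAF core TGCTGA or its reverse complement TCAGCA. PU.1, encoded by Spi1, and MAF are transcription factors of macrophages.
Cd163 (chr4:158770524-158770823, plus strand): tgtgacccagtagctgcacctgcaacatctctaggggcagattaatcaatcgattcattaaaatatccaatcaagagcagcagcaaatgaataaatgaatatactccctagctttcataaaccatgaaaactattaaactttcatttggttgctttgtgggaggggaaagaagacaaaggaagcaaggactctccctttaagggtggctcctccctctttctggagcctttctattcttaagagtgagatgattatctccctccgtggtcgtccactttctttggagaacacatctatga
Mrc1 (chr17:82157475-82157774, plus strand): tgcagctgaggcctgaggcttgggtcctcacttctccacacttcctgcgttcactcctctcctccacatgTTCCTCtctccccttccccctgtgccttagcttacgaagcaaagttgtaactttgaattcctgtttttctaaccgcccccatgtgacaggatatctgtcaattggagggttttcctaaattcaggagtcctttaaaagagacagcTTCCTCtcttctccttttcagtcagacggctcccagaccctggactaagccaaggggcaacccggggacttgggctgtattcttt
Cd68 (chr10:54882392-54882691, minus strand): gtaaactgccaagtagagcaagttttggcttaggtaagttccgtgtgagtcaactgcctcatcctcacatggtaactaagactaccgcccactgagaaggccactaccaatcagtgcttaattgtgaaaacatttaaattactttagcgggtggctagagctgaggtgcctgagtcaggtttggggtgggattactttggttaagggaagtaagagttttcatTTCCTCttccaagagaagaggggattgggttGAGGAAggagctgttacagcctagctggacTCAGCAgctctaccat
Folr2 (chr1:165630333-165630632, minus strand): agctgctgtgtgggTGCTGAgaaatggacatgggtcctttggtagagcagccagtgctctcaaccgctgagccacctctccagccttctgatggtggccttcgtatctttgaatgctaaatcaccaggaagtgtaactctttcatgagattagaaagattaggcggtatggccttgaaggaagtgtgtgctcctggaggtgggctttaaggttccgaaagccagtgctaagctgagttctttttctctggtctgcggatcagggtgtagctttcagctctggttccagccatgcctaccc
The PU.1 core was found on either strand in 3 of the 10 marker promoters (Adgre1, Cd68 and Mrc1), against 27.5% of 27457 promoters of the same length. The MAF core was found in 4 of the 10 (Folr2, Adgre1, Timd4 and Cd68), against 18.6% of all promoters. Cd68 and Mrc1 had PU.1 matches that began 27 and 35 bases before the gene start and a further match each, and no match of either motif was found in the windows of Cd163, Lyve1, Mertk, Gas6 or Maf. A match is a string of letters, and binding was not measured.

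Of 20 other macrophage genes, 19 were tested, of which edgeR called 1 higher and 0 lower, beside 5.18% and 1.53% of all tested genes. Their median log2 fold change was 0.32 (range -1.99 to 2.76). At an unadjusted p under 0.05 in edgeR 7 were higher and 3 lower, beside 18.2% and 14.2% of all tested genes, and DESeq2 called 5 higher and 3 lower, beside 14.8% and 12.5%. The gene called was Spi1, with FPKM of 4.03, 3.37 and 5.49 in sham and 16.0, 54.3 and 23.6 in ischemia, a log2 fold change of 2.76 ± 0.45 (SE, n = 3 per group) and an adjusted p of 0.0339 in edgeR. The ischemia samples were all above sham, with replicate 2 highest, the order also seen for Cd68. The complement gene C1qa was at 81.4, 67.3 and 92.2 FPKM in sham and 52.4, 61.2 and 48.2 in ischemia, lower in each ischemia sample. Its log2 fold change was -0.66 with an adjusted p of 0.0504 in edgeR. EdgeR called it under relative log expression scaling (0.0486), upper quartile scaling (0.0489), a mean FPKM of at least 5 (0.0379) and shared symbols summed (0.0499). EdgeR did not call it under total count scaling (0.121), without an expression filter (0.0792) or without sham replicate 1 (0.170). In all, C1qa was called in 5 of 17 alternatives. The other C1q genes of the list, C1qb and C1qc, had log2 fold changes of -0.03 and -0.42 (adjusted p 0.893 and 0.115 in edgeR). Selenop, a selenium carrier (-1.99, adjusted p 0.0511), Lgmn, a lysosomal protease (1.14, adjusted p 0.0514), and Csf1r, the receptor of the macrophage growth factor CSF1 (1.06, adjusted p 0.0941), also missed the threshold in edgeR. Over 17 alternatives, Selenop was called in 6, Lgmn in 7 and Csf1r in 2. At a mean FPKM of at least 5, edgeR gave adjusted p of 0.0413 for Selenop and 0.0446 for Lgmn.

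Of 18 tested genes of dead-cell clearance, edgeR called 1 higher and 0 lower, with a median of 0.35 (range -1.06 to 2.54), and 4 were higher and 2 lower at an unadjusted p under 0.05, while DESeq2 called 3 higher and 1 lower. These counts lie near the shares of all tested genes given above. The gene called by edgeR was Lgals3, which encodes galectin-3, at 49.1, 27.9 and 60.8 FPKM in sham and 196, 412 and 236 in ischemia (log2 fold change 2.54 ± 0.34, adjusted p 0.0278 in edgeR). Calr (1.02, adjusted p 0.0510), Rac1 (0.79, adjusted p 0.0638) and Itgb5 (-1.06, adjusted p 0.115) missed the threshold in edgeR. Over 17 alternatives, Calr was called in 3, Rac1 in 2 and Itgb5 in 1. At a mean FPKM of at least 5, edgeR gave Calr an adjusted p of 0.0459. Axl, the sister receptor of Mertk, gave 0.36 ± 0.20 with an adjusted p of 0.253, and Pros1, the other bridging ligand, gave -0.37 ± 0.31 with an adjusted p of 0.425 in edgeR. Both overlapped between the groups. Gas6 over Pros1 was 17.2 to 41.1 in sham and 2.94 to 15.8 in ischemia, with Gas6 itself lower in each ischemia sample.

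A list around the function of Cd163 held 4 tested genes of hemoglobin and heme handling (Hmox1, Hp, Blvra and Blvrb) and Il10ra, a subunit of the interleukin-10 receptor. EdgeR called 2 of these 5 higher, beside 5.18% of all tested genes, and 0 lower, with a median of 2.38 (range -0.50 to 4.55), which is the value of Il10ra (adjusted p 0.0790 in edgeR), and 3 were higher and 0 lower at an unadjusted p under 0.05 (beside 18.2% higher) and by DESeq2 (beside 14.8%). Blvra and Blvrb, which encode biliverdin reductases, had log2 fold changes of 0.02 and -0.50. Hmox1, which degrades heme, was at 5.27, 5.27 and 7.93 FPKM in sham and 74.1, 324 and 77.7 in ischemia (log2 fold change 4.55 ± 0.66, adjusted p 0.0292 in edgeR, and 3.60 without ischemia replicate 2). Hp, which encodes haptoglobin, the plasma protein that Cd163 binds together with hemoglobin, was at 0.849, 1.05 and 1.84 FPKM in sham and 3.52, 23.4 and 10.5 in ischemia (3.20 ± 0.70, adjusted p 0.0494 in edgeR). Hp was called in 7 of 17 alternatives, missed the threshold in edgeR under total count scaling (adjusted p 0.0551), under upper quartile scaling (just over 0.05) and without an expression filter (0.0574), and had a log2 fold change of 2.48 and an adjusted p of 0.0773 without ischemia replicate 2. Ischemia replicate 2 was the highest sample for both, whereas Cd163 was at 7.70 FPKM there and at 7.71 in ischemia replicate 1.

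Genes of neutrophils and recruited monocytes were read from the same samples. Of 16 tested, edgeR called 12 higher, beside 5.18% of all tested genes, and 0 lower (13 and 0 at an unadjusted p under 0.05, 11 and 0 by DESeq2), their median was 5.99 with a lowest value of 0.23, and their summed FPKM was 51.0 to 88.0 in sham and 976 to 4480 in ischemia, highest in replicate 2. Itgam, an integrin of these cells and of macrophages, was at 0.707, 0.779 and 0.846 FPKM in sham and 6.27, 23.7 and 11.6 in ischemia (log2 fold change 4.03, adjusted p 0.0272 in edgeR). Its partner Itgb2 was at 2.78, 2.53 and 3.74 in sham and 22.5, 96.2 and 54.9 in ischemia (4.16, adjusted p 0.0272 in edgeR). Retnlg, a neutrophil gene, was listed at 0 in all sham samples and at 15.6, 30.3 and 14.1 FPKM in ischemia. All tested genes of the list but Lcn2 and Cd177 were highest in ischemia replicate 2. Lcn2, which was called, was at 952, 137 and 337 FPKM in ischemia. Cd177, which was not called, had ischemia reads in replicate 1 only. For Cd68, Mrc1, Maf, Mertk and Spi1 the highest sample was also ischemia replicate 2. So it was for Lyve1, and among the ischemia samples for Folr2 and Adgre1, none of which was called higher. The part of recruited cells in these levels was not tested.

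**Figure D4:**
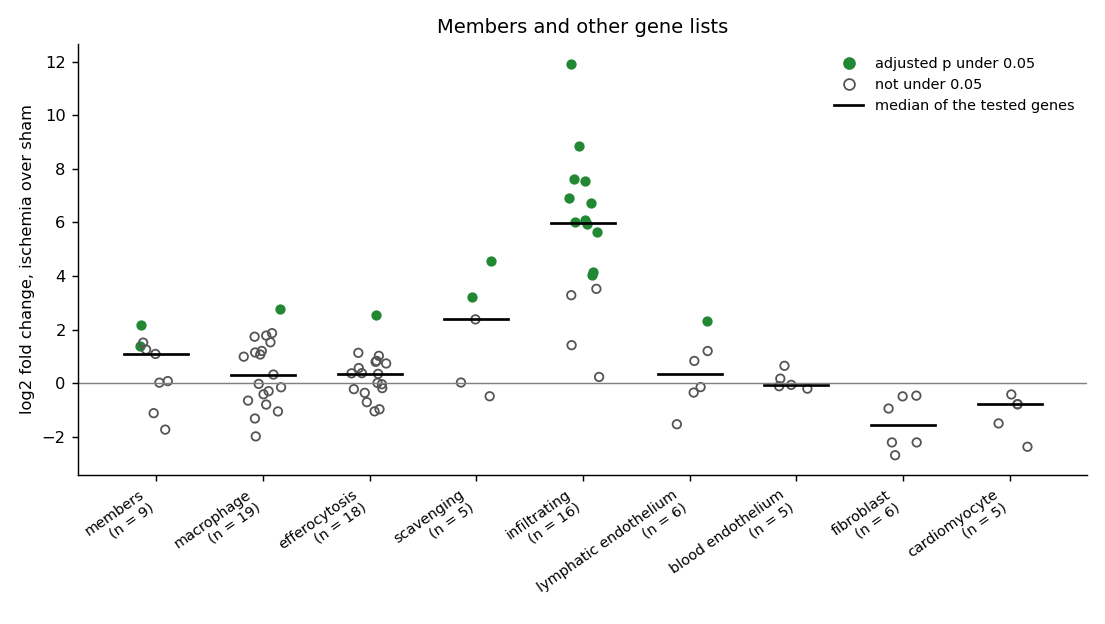
Log2 fold changes (ischemia over sham) of the tested genes of 9 lists, with 1 point per gene, filled green where the edgeR adjusted p is under 0.05, and a black line at the median. The markers have a median of 1.09, the other macrophage genes 0.32 and the neutrophil and monocyte genes 5.99, whose top point, Retnlg, rests on sham values of 0 and is no estimate of a fold.

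Markers of other cells that could carry the same genes were measured beside them. In lymphatic endothelium, which shares Lyve1, Prox1 was at 4.38, 2.99 and 2.73 FPKM in sham and 1.85, 0.758 and 1.04 in ischemia, while Flt4 was at 3.09, 3.18 and 2.45 in sham and 4.13, 7.18 and 5.46 in ischemia. These defining lymphatic genes thus lay on opposite sides of 0 (log2 fold changes -1.54 and 0.83, adjusted p 0.0656 and 0.102 in edgeR), and edgeR called 1 of 6 tested genes of the list higher (Pdpn) and 0 lower, with a median of 0.34 (range -1.54 to 2.31). At an unadjusted p under 0.05 in edgeR 3 were higher and 1 lower, and DESeq2 called 2 higher and 1 lower, beside the shares of all tested genes given above. The median was -0.07 over 5 genes of blood endothelium (range -0.21 to 0.64), -1.59 over 6 of fibroblasts (-2.70 to -0.47), -0.80 over 5 of cardiomyocytes (-2.38 to -0.43) and -3.60 over 4 atrial genes (-3.99 to -2.42), and edgeR called 0 genes of these lists in either direction. Without ischemia replicate 1 it called 3 fibroblast genes, 1 cardiomyocyte gene and 1 atrial gene lower, beside 7.96% of all tested genes. Myl7 went from -3.66 to -8.25 there. At an unadjusted p under 0.05, 1 blood endothelium gene was higher, beside 18.2% of all tested genes, and 3 fibroblast genes and 2 cardiomyocyte genes were lower, beside 14.2%, which DESeq2 also called in those numbers for the fibroblast and cardiomyocyte lists, beside 12.5%. Pecam1 was not analysed here. Summed FPKM of the fibroblast list was 698 to 2247 in sham and 271 to 706 in ischemia, with Col1a1 at 104, 119 and 443 against 90.2, 19.8 and 34.9. Summed FPKM of the cardiomyocyte list was 9932 to 13577 in sham and 3519 to 8722 in ischemia, with Myh6 at 4323, 4799 and 3899 against 1328, 437 and 886. Gas6 had the sign of these lists and was lowest in ischemia replicate 2, where the summed cardiomyocyte level was also lowest, while the summed fibroblast level was 279 there and 271 in ischemia replicate 3. The part of these cells in its level was not tested.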

How the data were processed

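The 10 markers and all gene lists were chosen with earlier results of these data known. The authors deposited 1 table with raw read counts and FPKM per gene for the 6 samples, and genes without reads are given there as 0.0001 FPKM. Per the labels, total RNA was made into libraries with a stranded kit, and the submitters' processing notes list STAR and HTSeq. The build, the versions and the strand setting of the counting were not given in the sources used here, so genes that share reads with a neighbour or copy are uncertain. For 99.8% of 11233 genes with many reads, FPKM followed from the counts by 1 factor per sample, within 1%.

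After a filter at a mean FPKM of 0.5 or more, genes were tested with the quasi-likelihood test of edgeR on raw counts with TMM scaling, two-sided, with Benjamini-Hochberg adjustment over 13964 genes and a threshold of 0.05. Standard errors were derived from the F statistic. A floor of 3 counts is 0.0377 to 0.0438 CPM per sample and covers counting error only. In simulated data with 200 genes changed by 2 on the log2 scale, edgeR recovered 51% with 3 false calls, limma 39% with 7 and DESeq2 67.5% with 32. The simulated spread followed a trend over the level of a gene, without spread of its own for each gene and without outlying samples. These rates therefore do not describe the more variable markers. Alternatives were other scalings, filters, DESeq2, limma on log2(FPKM + pseudocount), a replicate block, 1 sample left out and shared symbols summed.

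All 10 markers were named. Of other lists, counts, medians and ranges were given, with values for the 4 macrophage, 4 dead-cell clearance, 2 scavenging and 3 neutrophil and monocyte genes of smallest edgeR p, C1qa, Csf1r, Axl, Pros1, Hmox1 and the defining markers of other cells. C1qb, in a ratio, Pdpn, the 1 called gene of its list, and Blvra, Blvrb and Il10ra, the rest of theirs, were chosen after their values were seen. For 4 markers the 3 genes closest in mean-centred log2 CPM (prior count of 0.5) were named. The versions were edgeR 4.0.16, DESeq2 1.42.0 and limma 3.58.1 under R 4.3.3, and scipy 1.17.1 and matplotlib 3.10.9 under Python 3.11.15.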

Additional observations from a re-analysis of the deposited data

How the results depend on the processing

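Under total count scaling edgeR called 0 markers (6 at an unadjusted p under 0.05), with 509 genes called higher and 83 lower. Without an expression filter it called 1 marker, with 493 genes higher and 93 lower of 20541. With a mean FPKM of at least 5 it called 1 marker, with 725 genes higher and 291 lower of 8156, and the median of the 5 markers still tested was 0.02, since Cd163, Adgre1, Maf and Mertk were not tested. DESeq2 called 2071 genes higher and 1742 lower, with 5 markers higher and 1 lower. Limma on log2(FPKM + 1) and on log2(FPKM + 0.01) called 1 marker each, with 657 and 781 genes higher and 209 and 204 lower. With 1 sample left out, genes called higher ranged from 0 to 1495, genes called lower from 0 to 1115, markers called higher from 0 to 5, markers called lower from 0 to 1, and markers past a log2 fold change of 2 from 0 to 1 in each direction. Where 0 genes were called, 3029 to 3822 had an unadjusted p under 0.05 in edgeR. The same-numbered samples correlated between -0.187 and -0.0498 and were not taken as pairs. With the replicate number as a block, edgeR called 0 genes higher, 0 lower and 0 markers, with 3349 genes at an unadjusted p under 0.05. The sign of Folr2 turned under relative log expression scaling (-0.0143), upper quartile scaling (-0.0186), a mean FPKM of at least 5 (-0.0344) and DESeq2 (-0.0143), and ranged from -0.0240 to 0.0592 with 1 sample left out. Lyve1 ranged from -0.15 to 0.27 in the same way. The other 7 markers kept their sign in each alternative in which they were tested. The cause of these changes was not tested, beyond the fewer samples or genes in a fit. Each of the 9 measured markers had more than 3 counts, the floor, in all 6 samples.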
